A study of Mus musculus with 12 samples.

Results

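The HoxC cluster is a row of homeobox genes on mouse chromosome 15, and 7 of its genes are described here: Hoxc4, Hoxc5, Hoxc6, Hoxc8, Hoxc9, Hoxc10 and Hoxc11. They were chosen by name from the 53465 genes in the files, by a rule written when results of these data were already known, among them higher Hoxc8 and Hoxc9 counts in buds labelled Tbx3-deficient. Their differences in both mutant comparisons are therefore a description. The adjusted p-values given are what the fit over all genes returned for them, and nothing is supported with them. Of the 9 protein-coding HoxC genes annotated, the list leaves out Hoxc12 and Hoxc13, whose values are given once.

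RNA was sequenced from mouse forelimb buds of Swiss albino embryos in 12 libraries, 3 in each of 4 groups, and 1 library came from 1 pair of buds. The first group was labelled Tbx3-deficient (Tbx3ΔVenus/ΔVenus, every copy carrying a Venus reporter with a transcription stop at the start codon), and the second was wild type, both at E9.75 to E10 (28 to 31 somites). The third was Hand2-deficient (Prrx1-Cre;Hand2Δ/Δc) and the last was wild type with the same transgene (Prrx1-Cre;Hand2+/+), both at E10 to E10.25 (31 to 33 somites). Prrx1-Cre acts in limb mesenchyme, so ectoderm and other cells of those buds keep Hand2, while the Tbx3 allele is in every cell. Tbx3 encodes a T-box repressor and Hand2 a bHLH factor of the posterior limb bud. Because each library is a whole bud, fewer cells of a type and less RNA per cell cannot be told apart.

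Hox genes code for transcription factors that give positions along the body axis their identity. Within a cluster the genes lie in the order in which they are switched on, from the 3′ end, which is active early and far forward, to the 5′ end, which is active late and at the tail. HoxA and HoxD genes are the main Hox patterning genes of the limb itself. The HoxC genes mark levels of the trunk and flank: Hoxc4, Hoxc5 and Hoxc6 are used at the neck and forelimb level, Hoxc8 and Hoxc9 are best known from the flank between the limbs, and Hoxc10 and Hoxc11 from the hindlimb and lower trunk.

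The cluster spans chr15:102921103-103036852 on GRCm38, 116 kb on the plus strand, with Hoxc13 at the low end and Hoxc4 at the high end. Hoxc4 lies at 103018934 to 103036852, Hoxc6 at 102998257 to 103011881, Hoxc8 at 102990607 to 102994111 and Hoxc9 at 102976439 to 102985099. The annotation of Hoxc5 (102967443 to 103017429) has a far upstream exon that shares 166 exon bases with Hoxc10 (102966796 to 102971893) on the same strand, which is 8.7% of the exon bases of Hoxc10. Of words as long as a read (85 bases), Hoxc5 and Hoxc10 had 84 in common and the other 5 members shared none with any annotated gene. These were 4.6% of the words of Hoxc10. Reads of the shared bases could thus be divided between the 2 genes by the authors' counting. The shared bases are 5.37% of the exon bases of Hoxc5, which had 878 to 3268 expected counts per library, against 5.17 to 54.58 for Hoxc10. A small share of Hoxc5 reads could therefore weigh heavily in Hoxc10, and its low level is uncertain beyond the percentages given. How many Hoxc10 counts came from shared bases was not tested. Hoxc11 lies at 102954427 to 102957708.

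The homeobox, the stretch that codes for the DNA-binding domain, is what the family shares, and it is where reads of paralogues could be confused. The homeoboxes of the 3 members that were called in both mutant comparisons, and of the HoxB paralogues of the last 2, are shown from GENCODE M21 transcripts (GRCm38), 180 bases each on the plus strand, with 18 bases in capitals that code for the conserved core of the DNA-recognition helix.
Hoxc6 (chr15:103010754-103010933): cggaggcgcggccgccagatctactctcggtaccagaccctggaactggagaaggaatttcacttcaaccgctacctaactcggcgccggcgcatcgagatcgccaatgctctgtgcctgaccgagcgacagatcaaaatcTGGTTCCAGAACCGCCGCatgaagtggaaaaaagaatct
Hoxc8 (chr15:102992571-102992750): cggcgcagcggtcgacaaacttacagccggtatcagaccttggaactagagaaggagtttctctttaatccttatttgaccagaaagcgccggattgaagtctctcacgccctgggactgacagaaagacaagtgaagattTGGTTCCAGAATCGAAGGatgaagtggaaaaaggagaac
Hoxb8 (chr11:96284174-96284353): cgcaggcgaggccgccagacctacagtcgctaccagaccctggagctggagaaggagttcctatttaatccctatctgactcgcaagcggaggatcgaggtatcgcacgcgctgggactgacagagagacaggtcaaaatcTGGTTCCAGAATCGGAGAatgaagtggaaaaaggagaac
Hoxc9 (chr15:102983930-102984109): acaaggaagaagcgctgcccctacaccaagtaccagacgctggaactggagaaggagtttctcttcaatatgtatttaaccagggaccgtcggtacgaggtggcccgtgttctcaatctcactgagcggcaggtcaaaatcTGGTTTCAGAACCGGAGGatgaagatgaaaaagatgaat
Hoxb9 (chr11:96274659-96274838): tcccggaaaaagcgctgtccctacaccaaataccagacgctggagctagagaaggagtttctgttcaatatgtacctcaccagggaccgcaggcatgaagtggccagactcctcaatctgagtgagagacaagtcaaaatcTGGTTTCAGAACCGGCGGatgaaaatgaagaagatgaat
Hoxc8 and Hoxb8 differed at 36 of these bases, with no identical run longer than 21 bases. Hoxc9 and Hoxb9 differed at 29, with a longest identical run of 24. Both runs are shorter than a read.

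A microRNA gene, Mir196a-2, sits inside the cluster between Hoxc10 and Hoxc9, and its product is known to bind Hox transcripts, Hoxb8 of mouse among them. The mature strand (RefSeq, GRCm38.p6, chr15:102973365-102973386, plus strand) is shown with its seed, bases 2 to 8, in capitals, followed by the pair of places in the annotated Hoxc8 3′ UTR that hold the 7 letters ACTACCT, the complement of the seed (GRCm38, plus strand, capitals mark the match).
mmu-miR-196a-5p: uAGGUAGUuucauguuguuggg
Hoxc8, chr15:102992976-102992997: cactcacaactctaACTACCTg
Hoxc8, chr15:102993733-102993754: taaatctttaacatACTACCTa
These letters were searched on the transcript strand only and overlap no other motif searched. None of the other 6 members, nor Hoxb8 or Hoxb9, held them in the annotated 3′ UTR, and 5.54% of 20730 genes with an annotated 3′ UTR did. A match is a description of letters, not a site. Mir196a-2 had 0 counts in all 12 libraries.

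Total counts were 23.3 to 31.8 M (1 M is 1000000 counts) per library in the Tbx3 series and 60.2 to 68.6 M in the Hand2 series. Hand2-deficient replicate 1 stood apart from its replicates (chi-square per gene 209.2 and 223.4, against 14.04 to 29.62 between other replicate pairs), so the members and the lists are also given without it in the Hand2 series. Hand2 was at 0.186, 2.22 and 0.378 CPM (counts per M, scaled by TMM) in Hand2-deficient buds and at 120, 120 and 126 CPM in wild type. The check of Tbx3 does not bear its label out: Tbx3 was at 80.6, 79.3 and 73.3 CPM in buds labelled Tbx3-deficient and at 78.0, 77.3 and 79.3 CPM in wild type, from counts summed over the whole gene. Every direction given for that comparison rests on the labels alone. Limb mesenchyme genes were present in all libraries, with Prrx1 at 338 CPM or more and Twist1 at 310 CPM or more.

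Across the cluster the wild-type level was highest among the 3 genes at the 3′ end and lower toward the 5′ end. As CPM per kilobase of exon, the wild-type level at the later stage (31 to 33 somites) and at the earlier stage (28 to 31 somites) was 9 ± 1.34 and 11.4 ± 1.12 for Hoxc4, 10.7 ± 2.41 and 12.9 ± 1.94 for Hoxc5, and 10.4 ± 0.613 and 10.9 ± 0.581 for Hoxc6 (SD, n = 3 each). The libraries of these 3 neighbours overlapped at both stages, so their order is within their spread. Hoxc8 followed at 3.88 ± 0.910 and 3.93 ± 0.289 CPM per kilobase, and Hoxc9 at 1.57 ± 0.230 and 2.15 ± 0.163. Every wild-type library of a stage was lower for Hoxc8 than for Hoxc6, and lower for Hoxc9 than for Hoxc8. Hoxc10 stood at 0.284 ± 0.117 and 0.229 ± 0.0932 CPM per kilobase, and Hoxc11 at 0.0122 ± 0.00799 and 0.00633 ± 0.0110. Outside the list, Hoxc13 was at 0.460 ± 0.136 and 0.463 ± 0.155 CPM per kilobase, above Hoxc10 on average with overlapping libraries at both stages, while Hoxc12 had between 0 and 5 counts in every library. The order from Hoxc6 to Hoxc11 was the same in all 4 groups and with the length of the coding transcript alone. Among Hoxc4, Hoxc5 and Hoxc6 the order changed with the length used: on coding transcripts Hoxc6 led, at 15.9 and 16.7 CPM per kilobase.

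**Figure D1:**
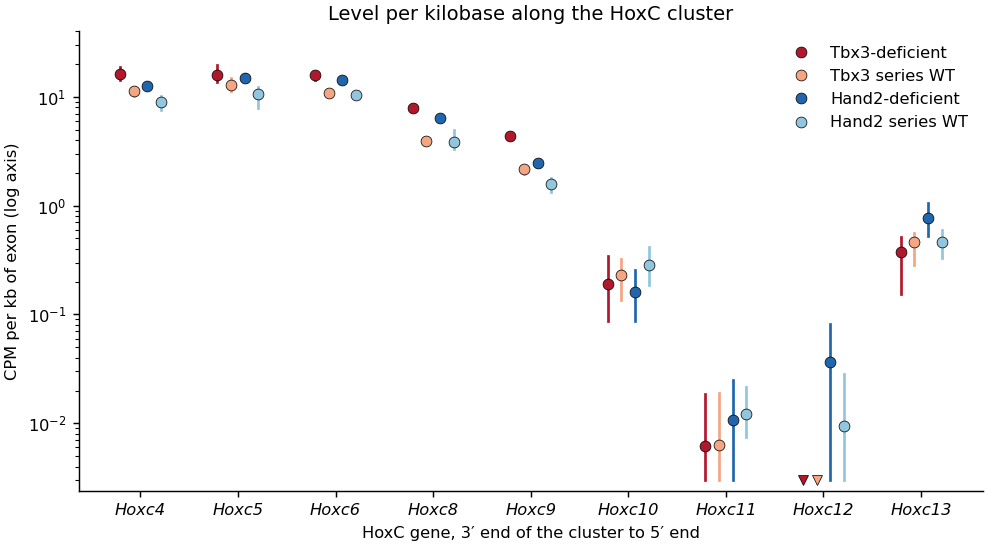
Level per kilobase of exon for each HoxC gene in cluster order, on a log axis in CPM per kilobase. Points are means of 3 libraries, lines run from the lowest to the highest library and are cut at the lower edge where a library is at 0, and triangles mark a gene at 0 in a whole group. Hoxc4, Hoxc5 and Hoxc6 share the top level, Hoxc8 and Hoxc9 step down, and Hoxc10 and Hoxc11 are far below in every group.

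Between the wild-type groups no member was called. Stage, colony, the Prrx1-Cre transgene and depth differ together here and cannot be told apart. Over 17360 genes tested with edgeR's quasi-likelihood test, 2.07% were called between later and earlier wild type at an adjusted p (Benjamini-Hochberg over all genes) under 0.05, against 0 of the 6 members tested. At an unadjusted p under 0.05 there were 2, Hoxc9 and Hoxc4, and DESeq2 called 1, Hoxc9. On the scale of all 12 libraries, Hoxc9 lay between 3.25 and 4.37 CPM in the later buds and between 4.77 and 5.47 CPM in the earlier ones. The log2 fold change was -0.46 (SE 0.120, adjusted p = 0.0749 by edgeR). Hoxc4 had 19.3 to 25.9 CPM in the later buds and 26.2 to 31.7 CPM in the earlier ones (log2 fold change -0.35, SE 0.123, adjusted p = 0.163 by edgeR). For both genes no later library reached the lowest earlier one. The share of all genes for which this held was not taken, so nothing is read from it. Hoxc8 averaged 11 ± 2.58 CPM in the later buds and 11.1 ± 0.819 CPM in the earlier ones, a log2 difference of -0.02 whose 95% interval ran from -0.29 to 0.25. Hoxc6 differed by -0.07 (95% interval -0.21 to 0.06) and Hoxc5 by -0.26 (-0.60 to 0.07).

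In buds labelled Tbx3-deficient, the flank genes Hoxc8 and Hoxc9 were at about 2-fold their wild-type level, Hoxc6 was 1.44-fold higher, and the rest of the list was not called. Of the 7 members, 6 passed the filter on low counts. Of the 15130 genes tested, 1.01% were called and 0.727% were called higher, and the members called were 3 of 6, all higher. Every library labelled Tbx3-deficient lay above every wild-type library for 10.7% of genes tested and for 4 of the 6 members. Since the list was chosen with this contrast known, nothing is read from these shares.

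Hoxc8 had 21.6, 22.2 and 22.9 CPM in buds labelled Tbx3-deficient, against 10.7, 12 and 10.6 CPM in wild type. The 3 libraries labelled deficient lay close together, and the groups were far apart. Its log2 fold change was 1.00 (SE 0.0835, 2.00-fold, adjusted p = 0.00616, edgeR). The raw counts behind it were 530, 703 and 617 in buds labelled Tbx3-deficient and 251, 276 and 275 in wild type.

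Hoxc9, which in the mouse flank works at the level behind the forelimb, had 9.85, 10.7 and 11.2 CPM in buds labelled Tbx3-deficient, against 4.74, 5.42 and 5.45 CPM in wild type. No library of one group came near the other group. The log2 fold change was 1.02 (SE 0.122, 2.03-fold, adjusted p = 0.0153, edgeR).

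Hoxc6, which is used at the level of the forelimb and upper thorax, had 34.3, 40.1 and 38.8 CPM in buds labelled Tbx3-deficient, against 24.8, 26.0 and 27.8 CPM in wild type. The groups did not overlap, and the log2 difference was 0.53 (SE 0.0761, adjusted p = 0.0310, edgeR). Hoxc4, the gene at the 3′ end, had 37.0, 47.5 and 38.7 CPM in buds labelled Tbx3-deficient, against 31.5, 25.9 and 30.2 CPM in wild type. Here too the groups did not overlap, but the gene was not called (log2 fold change 0.49, SE 0.111, adjusted p = 0.101, edgeR). It was called by DESeq2 (0.00370) and with no low-count filter (0.00919).

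Hoxc5 had 42.2, 59.3 and 44.8 CPM in buds labelled Tbx3-deficient, against 46.1, 38.0 and 34.7 CPM in wild type. These ranges overlapped, since wild-type replicate 1 lay above 2 libraries labelled deficient (log2 fold change 0.30, SE 0.147, adjusted p = 0.406, edgeR). Hoxc10, a gene of the hindlimb level, had 0.662, 0.163 and 0.263 CPM in buds labelled Tbx3-deficient, against 0.256, 0.433 and 0.615 CPM in wild type, from 5.17 to 16.3 expected counts per library. Its log2 fold change of -0.34 had an SE of 0.592, so neither a rise nor a fall was detectable at this depth. Hoxc11, likewise of the hindlimb level, had 0, 0 and 1 count in buds labelled Tbx3-deficient and 0, 0 and 1 count in wild type. A count of 0 allows up to 3 counts, which is 0.0944 to 0.129 CPM in these libraries, and gives no fold. Outside the list, Hoxc13 averaged 0.917 ± 0.472 CPM in buds labelled Tbx3-deficient and 1.13 ± 0.382 CPM in wild type and was not called.

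**Figure D2:**
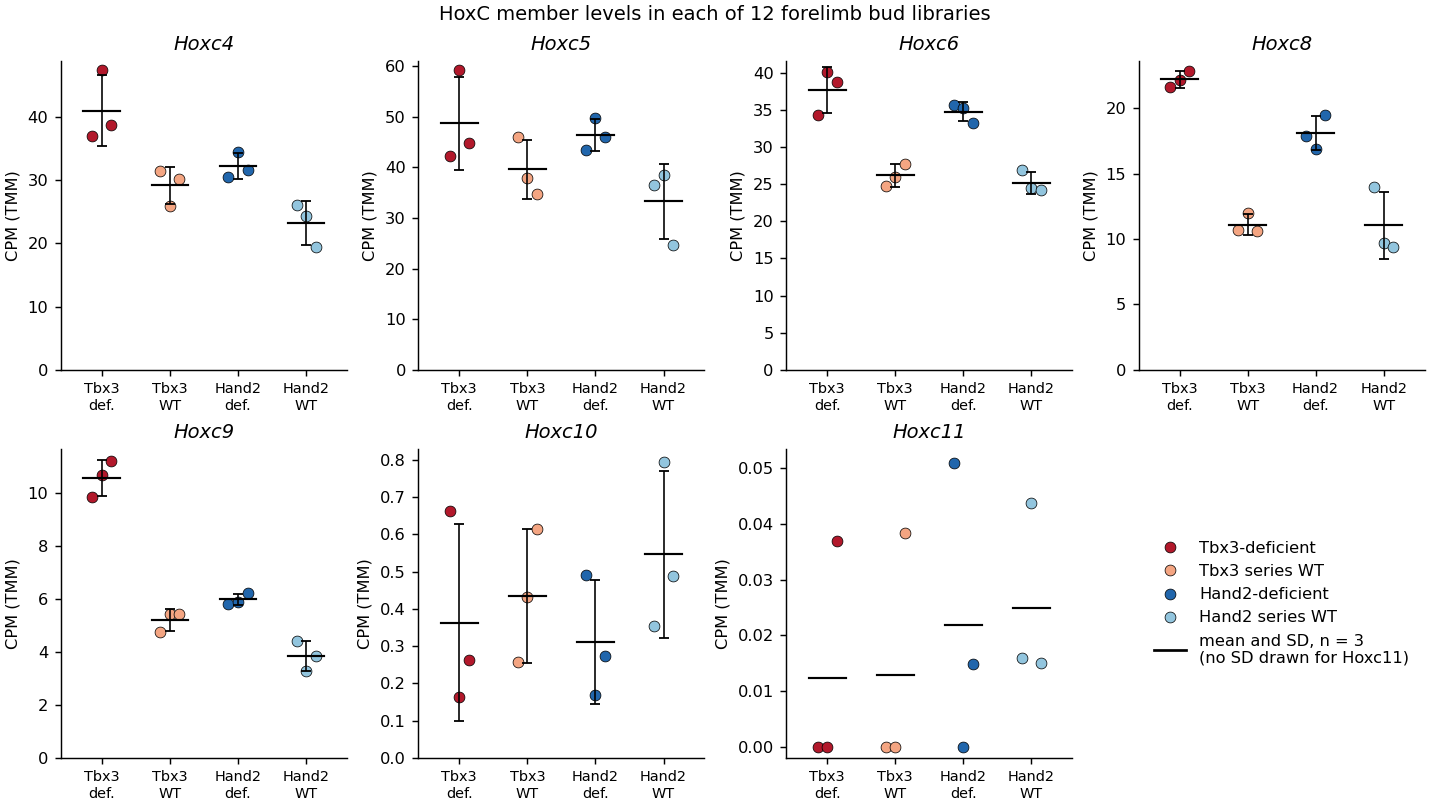
CPM (TMM scaled within each series) of the 7 members in every library. Points are libraries, replicates 1 to 3 left to right in each group, with lines at the mean and bars of 1 SD (n = 3). For Hoxc8 the libraries labelled Tbx3-deficient lie at 21.6 to 22.9 CPM, those of wild type at 10.6 to 12 CPM, while Hoxc10 and Hoxc11 stay below 1 CPM in every library.

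The mix of HoxC transcripts within a library restates the same values, and its differences in the Tbx3 series follow from the fold changes given above. Higher Hoxc8 and Hoxc9 counts were known when the list was chosen, so nothing is supported with this mix. Hoxc8 and Hoxc9 together made up 21.6%, 18.3% and 21.7% of the members' summed CPM in buds labelled Tbx3-deficient, and 13.1%, 16.1% and 14.6% in wild type. The log2 ratio of Hoxc9 to Hoxc4 was -1.91, -2.15 and -1.79 in buds labelled Tbx3-deficient, against -2.73, -2.26 and -2.47 in wild type, with no overlap. A ratio within a library does not depend on how libraries were scaled. For Hoxc8 to Hoxc4 the ratio was -0.78, -1.10 and -0.76 in buds labelled Tbx3-deficient and -1.56, -1.12 and -1.52 in wild type, again without overlap, though replicates 2 of the groups nearly met. For Hoxc6 to Hoxc4 the groups overlapped (-0.11, -0.24 and 0.00 in buds labelled Tbx3-deficient, against -0.34, 0.00 and -0.12 in wild type). In the Hand2 series all of these measures overlapped. Hoxc8 and Hoxc9 made up 17.7%, 16.0% and 18.8% of the sum in Hand2-deficient buds and 17.0%, 12.9% and 16.2% in wild type, and the log2 ratio of Hoxc9 to Hoxc4 was -2.39, -2.55 and -2.34 in Hand2-deficient buds, against -2.57, -2.89 and -2.34 in wild type.

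The calls of Hoxc6 and Hoxc9 depended on which libraries entered. By their Xist and Y-linked counts, the libraries labelled Tbx3-deficient were male, male and female and the wild-type ones all female. With sex in the model Hoxc8 alone was called (adjusted p = 0.0471), while Hoxc9 had an adjusted p of 0.0870 and Hoxc6 of 0.191 (edgeR). The 1 female library labelled Tbx3-deficient had 22.9 CPM of Hoxc8, 11.2 of Hoxc9 and 38.8 of Hoxc6, each above all 3 female wild-type libraries. Hoxc8 was called without each of the 6 libraries in turn. Hoxc9 lost its call without replicate 2 or 3 of either group (adjusted p of 0.0532 to 0.0640). Hoxc6 lost it without each library except replicate 1 labelled deficient (0.0717 to 0.112).

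In Hand2-deficient buds Hoxc4, Hoxc6, Hoxc8 and Hoxc9 were called, between 1.38-fold and 1.64-fold higher. Of the 17488 genes tested, 10.5% were called and 4.68% were called higher, and the members called were 4 of 6, all higher. Every Hand2-deficient library lay above every wild-type library for 18.6% of genes tested and for 5 of the 6 members. As before, nothing is read from these shares.

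Hoxc8 had 17.9, 16.9 and 19.5 CPM in Hand2-deficient buds, against 14, 9.72 and 9.42 CPM in wild type. Wild-type replicate 1 stood above its 2 replicates, yet below every deficient library. The log2 fold change was 0.71 (SE 0.160, 1.64-fold, adjusted p = 0.0407, edgeR). Hoxc9 had 5.82, 5.89 and 6.24 CPM in Hand2-deficient buds, against 4.40, 3.28 and 3.84 CPM in wild type, with no overlap. Its log2 fold change was 0.64 (SE 0.126, 1.56-fold, adjusted p = 0.0303, edgeR).

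Hoxc6 had 35.7, 35.3 and 33.3 CPM in Hand2-deficient buds, against 26.9, 24.5 and 24.2 CPM in wild type. The deficient libraries all lay above the wild-type ones, by 0.46 on the log2 scale (SE 0.0604, 1.38-fold, adjusted p = 0.0102, edgeR). Hoxc4 had 30.6, 34.5 and 31.6 CPM in Hand2-deficient buds, against 26.1, 24.3 and 19.4 CPM in wild type, also without overlap (log2 fold change 0.47, SE 0.113, 1.39-fold, adjusted p = 0.0448, edgeR). Hoxc5 had 43.4, 49.8 and 46.1 CPM in Hand2-deficient buds, against 36.6, 38.5 and 24.7 CPM in wild type. The groups did not overlap, but the gene was not called (log2 fold change 0.48, SE 0.158, adjusted p = 0.0906, edgeR). DESeq2 called it (0.0101).

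At the 5′ end, Hoxc10 had 0.492, 0.168 and 0.272 CPM in Hand2-deficient buds, against 0.355, 0.794 and 0.489 CPM in wild type. The ranges overlapped and the gene was not called (log2 fold change -0.83, SE 0.469, adjusted p = 0.261, edgeR). Hoxc11 had 3, 0 and 1 count in Hand2-deficient buds and 1, 3 and 1 count in wild type, too few for a test. Outside the list, Hoxc13 averaged 1.91 ± 0.675 CPM in Hand2-deficient buds and 1.14 ± 0.338 CPM in wild type and was not called (adjusted p = 0.160, edgeR).

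Most of these calls depended on single libraries. Without Hand2-deficient replicate 1, the library that stood apart, Hoxc6 alone was called, and Hoxc4, Hoxc8 and Hoxc9 had log2 fold changes of 0.51, 0.72 and 0.66 with adjusted p-values of 0.0940, 0.104 and 0.0793 (edgeR). Hoxc6 was also the one member called without Hand2-deficient replicate 2, with Hoxc9 at an adjusted p of 0.0574, and without replicate 3. Without wild-type replicate 3 none was called (adjusted p of 0.0513 for Hoxc6, 0.0903 for Hoxc4, 0.111 for Hoxc9 and 0.132 for Hoxc8), and without wild-type replicate 2 only Hoxc6 and Hoxc9 were. Hoxc4 lost its call without each library in turn (0.0616 to 0.104). With sex in the model Hoxc4, Hoxc5 and Hoxc6 were called and Hoxc8 (0.0762) and Hoxc9 (0.0693) were not, the libraries being male, female and male in Hand2-deficient buds and female, female and male in wild type.

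**Figure D3:**
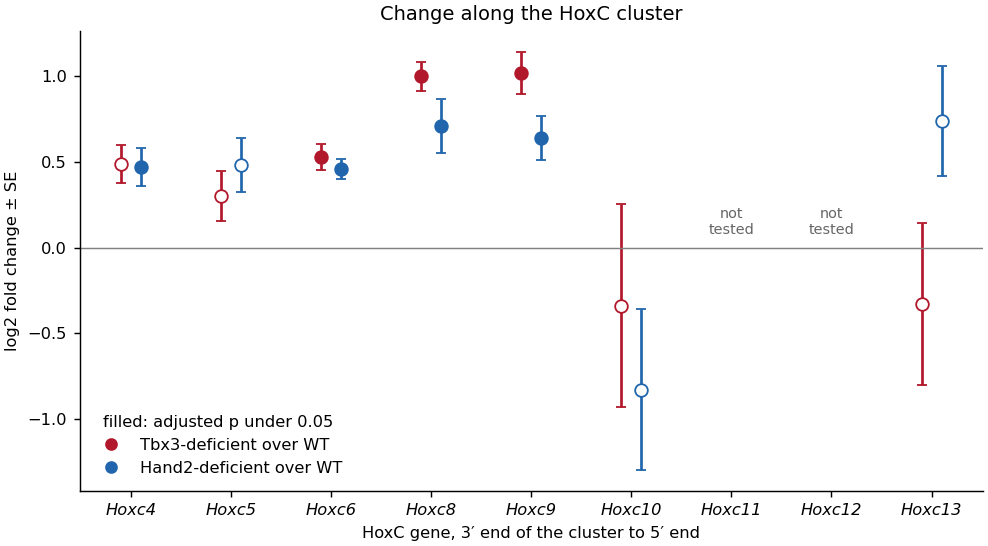
Log2 fold change of each HoxC gene in cluster order with its SE, in buds labelled Tbx3-deficient and in Hand2-deficient buds, each over its own wild type (3 libraries a group). Filled points had an adjusted p under 0.05. Hoxc8 and Hoxc9 reach 1.00 and 1.02 in the first comparison and 0.71 and 0.64 in the second, while the bars of Hoxc10 are wide in both.

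Whether a member differed more in one mutant than in the other was tested in 1 fit of all 12 libraries, in which stage, colony and kind of allele differ together with the gene lost. For this difference (the Hand2 effect minus the Tbx3 effect) 1.68% of 17360 genes were called and 0 of the 6 members tested (edgeR). At an unadjusted p under 0.05 there was 1 member, Hoxc9, and DESeq2 called 0. The difference was -0.38 for Hoxc9 on the log2 scale (95% interval -0.71 to -0.05, adjusted p = 0.273) and -0.29 for Hoxc8 (-0.67 to 0.08, adjusted p = 0.458). For Hoxc4 it was -0.02 (-0.36 to 0.32), for Hoxc6 -0.06 (-0.25 to 0.13) and for Hoxc5 0.18 (-0.30 to 0.65). The larger values of Hoxc8 and Hoxc9 under the Tbx3 label were thus not called different from those in Hand2-deficient buds.

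Set by paralogue group, the HoxB genes had values on the same side as the HoxC genes. The HoxB gene list had 9 of 10 members tested, with a median log2 fold change of 0.56 in buds labelled Tbx3-deficient, beside a median of about 0 over all genes. Of these 9, 2 (Hoxb8 and Hoxb7) were called higher by edgeR, where 0.727% of all genes were (6 at an unadjusted p under 0.05, 5 higher by DESeq2). Hoxb8, the paralogue of Hoxc8, had 43.1, 60.9 and 48.7 CPM in buds labelled Tbx3-deficient, against 22.5, 30 and 19.8 CPM in wild type (log2 fold change 1.08, SE 0.172, adjusted p = 0.0397, edgeR). Hoxb9, the paralogue of Hoxc9, had 34.8, 70.9 and 44.2 CPM in buds labelled Tbx3-deficient, against 12, 25.1 and 11.1 CPM in wild type (log2 fold change 1.65, SE 0.359, adjusted p = 0.0954). Hoxb7 was higher by 0.78 on the log2 scale (SE 0.118, adjusted p = 0.0358).

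In Hand2-deficient buds 1 HoxB gene of 9, Hoxb3, was called higher (log2 fold change 0.50, adjusted p = 0.0381, edgeR), where 4.68% of all genes were. At an unadjusted p under 0.05 there were 6, and DESeq2 called 3 higher. The median over the 9 tested was 0.50, and that of all genes was 0.01. Hoxb8 had 24.4, 29.9 and 25.0 CPM in Hand2-deficient buds, against 23.6, 12.6 and 12.5 CPM in wild type. Wild-type replicate 1 was nearly level with the deficient libraries, the same library that was highest among wild type for Hoxc8. Hoxb9 had 23.6, 30.3 and 23.9 CPM in Hand2-deficient buds, against 18.8, 8.14 and 5.68 CPM in wild type, and was not called (adjusted p = 0.0877).

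Hoxd8 and Hoxd9, the HoxD paralogues of Hoxc8 and Hoxc9, had values below 0, from -0.27 to -0.04, and neither was called in a mutant comparison. Hoxd8 had a log2 fold change of -0.09 (SE 0.0582) in buds labelled Tbx3-deficient, beside 1.00 for Hoxc8, and Hoxd9 had -0.27 (SE 0.0776), beside 1.02 for Hoxc9. In Hand2-deficient buds Hoxd8 was at -0.18 (SE 0.143) and Hoxd9 at -0.04 (SE 0.122). Of the 9 HoxD genes tested, none was called in buds labelled Tbx3-deficient by edgeR (6 at an unadjusted p under 0.05, 2 lower by DESeq2), and 3 were called lower in Hand2-deficient buds: Hoxd12 (log2 fold change -4.47), Hoxd13 (-2.86) and Hoxd11 (-2.51), the genes of the forming hand. HoxA held 10 tested genes with 0 called in buds labelled Tbx3-deficient (5 at an unadjusted p under 0.05, and 1 higher and 1 lower by DESeq2). In Hand2-deficient buds Hoxa2 (0.69) and Hoxa3 (0.46) were called higher and Hoxa11 (-0.44) lower. Over all genes, 1.01% were called under the Tbx3 label and 10.5% in Hand2-deficient buds. The share of all genes at an unadjusted p under 0.05 was not taken, for the HoxA, HoxB and HoxD lists or for the lists below. The median HoxA log2 fold change was 0.18 in buds labelled Tbx3-deficient and 0.04 in Hand2-deficient buds, and that of HoxD was -0.27 and -0.18. Between the wild-type groups, 3 HoxD genes (Hoxd3, Hoxd8 and Hoxd9) were called lower at the later stage, where 2.07% of all genes were called.

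**Figure D4:**
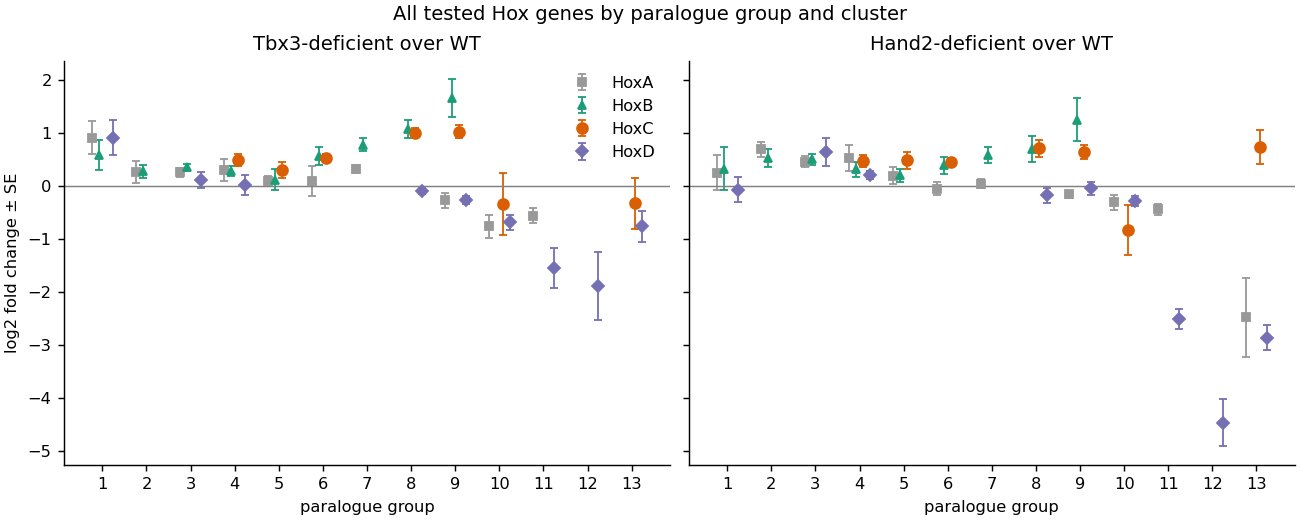
Log2 fold change with SE for every tested Hox gene, by paralogue group (the number in the gene's name) and cluster, in buds labelled Tbx3-deficient and Hand2-deficient buds, each over wild type (3 libraries a group). In groups 8 and 9 the HoxB and HoxC genes lie above 0.6 in both panels, and the HoxA and HoxD genes lie below 0.

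Genes next to the cluster were not called. On the Hoxc13 side, Atp5g2 had log2 fold changes of 0.12 (SE 0.0565) in buds labelled Tbx3-deficient and 0.09 (SE 0.0554) in Hand2-deficient buds. Calcoco1 had 0.04 (SE 0.0639) and 0.25 (SE 0.0695, adjusted p = 0.0647 by edgeR), the latter close to a call. On the Hoxc4 side, Smug1 had 0.27 (SE 0.0692, adjusted p = 0.134 by edgeR) and 0.02, and Cbx5, a heterochromatin protein gene, had -0.02 and -0.06. Inside the cluster 7 non-coding genes are annotated. Hotair, a long non-coding RNA between Hoxc12 and Hoxc11 on the minus strand, had 4 counts over all 12 libraries, and the other 6 had 0. Mir196a-2 is among these 6, and its 0 does not show that its product was absent. Strand is not stated for these libraries.

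The members varied together to different degrees. After the mean of each series was subtracted from log2 CPM, Pearson's r over the 12 libraries was 0.97 between Hoxc8 and Hoxc9, 0.96 between Hoxc6 and Hoxc9, and 0.58 between Hoxc5 and Hoxc9. These values hold the genotype difference that the genes share, and libraries and depth are common to them. Of 10513 genes compared outside the cluster, the pattern of Hoxc9 was nearest to Tbkbp1 (r = 0.983) and Ppp1r3b (0.968), that of Hoxc8 to Tbkbp1 (0.963) and Hoxb7 (0.956), and that of Hoxc6 to Ppp1r3b (0.966) and Tbkbp1 (0.954). Hoxc4 was nearest to Adamts9 (0.972), an extracellular protease gene, and Col4a5 (0.963), a basement membrane collagen gene. Hoxc5 was nearest to Plk2 (0.977) and Kctd12 (0.961). Tbkbp1 itself had 40.3, 42.4 and 42.4 CPM in buds labelled Tbx3-deficient against 35.6, 37.1 and 36.3 CPM in wild type, and 39.1, 39.1 and 39.4 CPM in Hand2-deficient buds against 37.1, 33.8 and 35.7 CPM in wild type. Its differences were small and not called (log2 fold change 0.20 and 0.14).

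HOX proteins bind DNA together with the PBX, MEIS and PKNOX proteins of the TALE class. None of the 9 genes tested was called in buds labelled Tbx3-deficient by edgeR (4 at an unadjusted p under 0.05, 2 higher by DESeq2), and 3 were called higher in Hand2-deficient buds, where 4.68% of all genes were. Among them were Meis1 (log2 fold change 0.46, adjusted p = 0.00793) and Pbx3 (0.16, adjusted p = 0.0443). The medians over the list were 0.26 in buds labelled Tbx3-deficient and 0.32 in Hand2-deficient buds.

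Polycomb proteins keep silent Hox genes shut and trithorax proteins keep active ones open. In Hand2-deficient buds 10.5% of all genes were called, and the 2 Polycomb and 3 trithorax genes called there are to be read beside that share. Of 15 Polycomb genes none was called in buds labelled Tbx3-deficient by edgeR (1 at an unadjusted p under 0.05, 0 by DESeq2, median -0.04), and Rnf2 (-0.28) and Eed (-0.22) were called lower in Hand2-deficient buds (median -0.02). Of 10 trithorax genes none was called in buds labelled Tbx3-deficient (2 at an unadjusted p under 0.05, 0 by DESeq2, median -0.06), and Rbbp5 (-0.19), Ash2l (-0.16) and Wdr5 (-0.16) were called lower in Hand2-deficient buds (median -0.16). Regulators that time Hox activation in the trunk (the Cdx, Gdf11 and Lin28 list) were listed under 9 names, of which Gdf8 and Mstn stand for the same gene. Of this list 6 genes were tested and 0 called in either comparison by edgeR. At an unadjusted p under 0.05 there was 1 in buds labelled Tbx3-deficient and there were 3 in Hand2-deficient buds, where DESeq2 called 1 higher and 1 lower, against 0 under the Tbx3 label.

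Limb identity genes also differed. Pitx1, which directs hindlimb identity, had 12.4, 13.3 and 12.4 CPM in buds labelled Tbx3-deficient, against 0.896, 0.433 and 0.499 CPM in wild type, and 3.28, 2.28 and 2.02 CPM in Hand2-deficient buds, against 1.14, 1.11 and 0.635 CPM in wild type. It was called higher in both comparisons, alone of the 4 hindlimb identity genes under the Tbx3 label (list median 0.36) and beside Isl1 (1.60) in Hand2-deficient buds (list median 1.03). Over all genes, 0.727% were called higher under the Tbx3 label and 4.68% in Hand2-deficient buds. Tbx5, the forelimb identity gene, was called lower in buds labelled Tbx3-deficient (-0.53 on the log2 scale, adjusted p = 0.0397, edgeR) and not in Hand2-deficient buds (-0.06, adjusted p = 0.703).

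Trunk tissue uses the same HoxC genes, so its markers are given beside them. The 7 markers of body wall and coelomic lining had a median log2 fold change of 1.56 in buds labelled Tbx3-deficient, with none called by edgeR (3 at an unadjusted p under 0.05, 1 higher and 1 lower by DESeq2). Tbx18 (-0.71) and Lhx9 (-0.05) lay below 0, and the other markers above it. Tbx18 had 32.8, 18.5 and 24 CPM in buds labelled Tbx3-deficient, against 44.4, 39.6 and 38.5 CPM in wild type. The summed level of the 7 markers was 364 to 392 CPM in buds labelled Tbx3-deficient and 332 to 386 CPM in wild type, most of it from Lhx9, which limb mesenchyme also expresses. In Hand2-deficient buds their median was 0.98, with Gata4 (3.14), Tbx18 (0.58) and Lhx9 (0.54) called higher, where 4.68% of all genes were. The sum over the 7 was 484 to 524 CPM in Hand2-deficient buds, against 303 to 361 CPM in wild type. None of the 7 was at 0 in any library.

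Wt1, a marker of the coelomic lining, had 13.4, 17.8 and 9.67 CPM in buds labelled Tbx3-deficient, against 10.5, 0.866 and 3.73 CPM in wild type, and 2.24, 11.3 and 9.54 CPM in Hand2-deficient buds, against 5.60, 3.77 and 0.287 CPM in wild type. Of the 7 markers, 2 (Gata5 and Gata6) lay higher in every library labelled Tbx3-deficient than in any of wild type, where this held for 10.7% of all genes, and 3 (Gata4, Tbx18 and Lhx9) lay higher in every Hand2-deficient library than in any of wild type, where it held for 18.6%. Wild-type replicate 1 of the Tbx3 series had the highest wild-type level of Wt1, Upk3b, Gata4, Gata5 and Gata6, and also of Hoxc4 (31.5 CPM) and Hoxc5 (46.1 CPM), but not of Hoxc6, Hoxc8 or Hoxc9. Replicate 2 labelled Tbx3-deficient had the highest level of those 5 markers in its group, and also of Hoxc4 (47.5 CPM), Hoxc5 (59.3 CPM) and Hoxc6 (40.1 CPM), but not of Hoxc8 or Hoxc9. Hand2-deficient replicate 1 had the lowest Wt1 level of its group, 2.24 CPM. It also had the lowest Hoxc4 (30.6 CPM), Hoxc5 (43.4 CPM) and Hoxc9 (5.82 CPM), but the highest Hoxc6 (35.7 CPM). Its Hoxc8 level, 17.9 CPM, lay between those of its replicates. In the Hand2 series, wild-type replicate 1 had the highest wild-type level of the same 5 markers (Gata6 at 18.8 CPM). Its Tbx18 (34 CPM) was the lowest of its group, and its Lhx9 (263 CPM) lay between those of its replicates. It also had the highest Hoxc4 (26.1 CPM), Hoxc6 (26.9 CPM), Hoxc8 (14 CPM) and Hoxc9 (4.40 CPM). Its Hoxc5 (36.6 CPM) was below that of replicate 2 (38.5 CPM). The part of body wall cells in the HoxC results was not tested.

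Somite markers had a median of 0.80 over 7 tested genes in buds labelled Tbx3-deficient, with 5 of the 7 higher in every library labelled deficient than in any of wild type (10.7% of all genes) and none called by edgeR (6 at an unadjusted p under 0.05, 2 higher and 1 lower by DESeq2). Their sum was 99.6 to 115 CPM in buds labelled Tbx3-deficient and 87.6 to 94.9 CPM in wild type. Meox1 had 28.2, 42.6 and 35.4 CPM in buds labelled Tbx3-deficient, against 19.0, 21.9 and 20.2 CPM in wild type. Meox2 had 11.7, 7.13 and 8.22 CPM in buds labelled Tbx3-deficient, against 13.9, 13.1 and 18.2 CPM in wild type. Meox2 (log2 fold change -0.75) and Pax3 (-0.13) lay below 0, and the other somite markers tested above it. In Hand2-deficient buds the median over 8 genes was 0.21, with none called (3 at an unadjusted p under 0.05, 1 higher and 1 lower by DESeq2) and sums of 81.4 to 87.0 CPM against 73.8 to 97.8 CPM in wild type. The part of somite cells was not tested either.

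The remaining marker lists had smaller or opposite medians under the Tbx3 label. Median log2 fold changes in buds labelled Tbx3-deficient and in Hand2-deficient buds were 0.25 and 0.38 for neural crest, -0.44 and -0.22 for neural tube and neuron, 0.14 and 0.28 for muscle progenitors, and -0.30 and 0.20 for red cells. They were 0.15 and -0.02 for limb ectoderm, 0.07 and 0.14 for endothelium, and -0.06 and 0.18 for limb mesenchyme. Under the Tbx3 label Tbx5 of limb mesenchyme was the 1 gene of these lists called by edgeR. In Hand2-deficient buds Cdh5 of endothelium (0.16) and Prrx2 (0.53) and Twist1 (0.25) of limb mesenchyme were called higher, and Fgf8 of ectoderm (-0.75) and Fgf10 of mesenchyme (-0.61) lower. Over all genes, 1.01% were called under the Tbx3 label and 10.5% in Hand2-deficient buds.

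Without Hand2-deficient replicate 1, edgeR called 2.72% of 17903 genes, and most of these lists lost calls. The 3 HoxD genes, 2 of the 3 TALE genes (Meis1 among them), Rnf2, Isl1, Prrx2 and Fgf8 were called in both fits. No gene of the HoxA, HoxB, trithorax, body wall or endothelial lists was called without it, although 5, 5, 7, 3 and 3 of them had an unadjusted p under 0.05. Eed, Pbx3, Pitx1, Twist1 and Fgf10 lost their calls. The median log2 fold change over the tested genes was then 0.50 for HoxB, 0.40 for the TALE genes, 1.14 for body wall and 0.30 for somite.

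**Figure D5:**
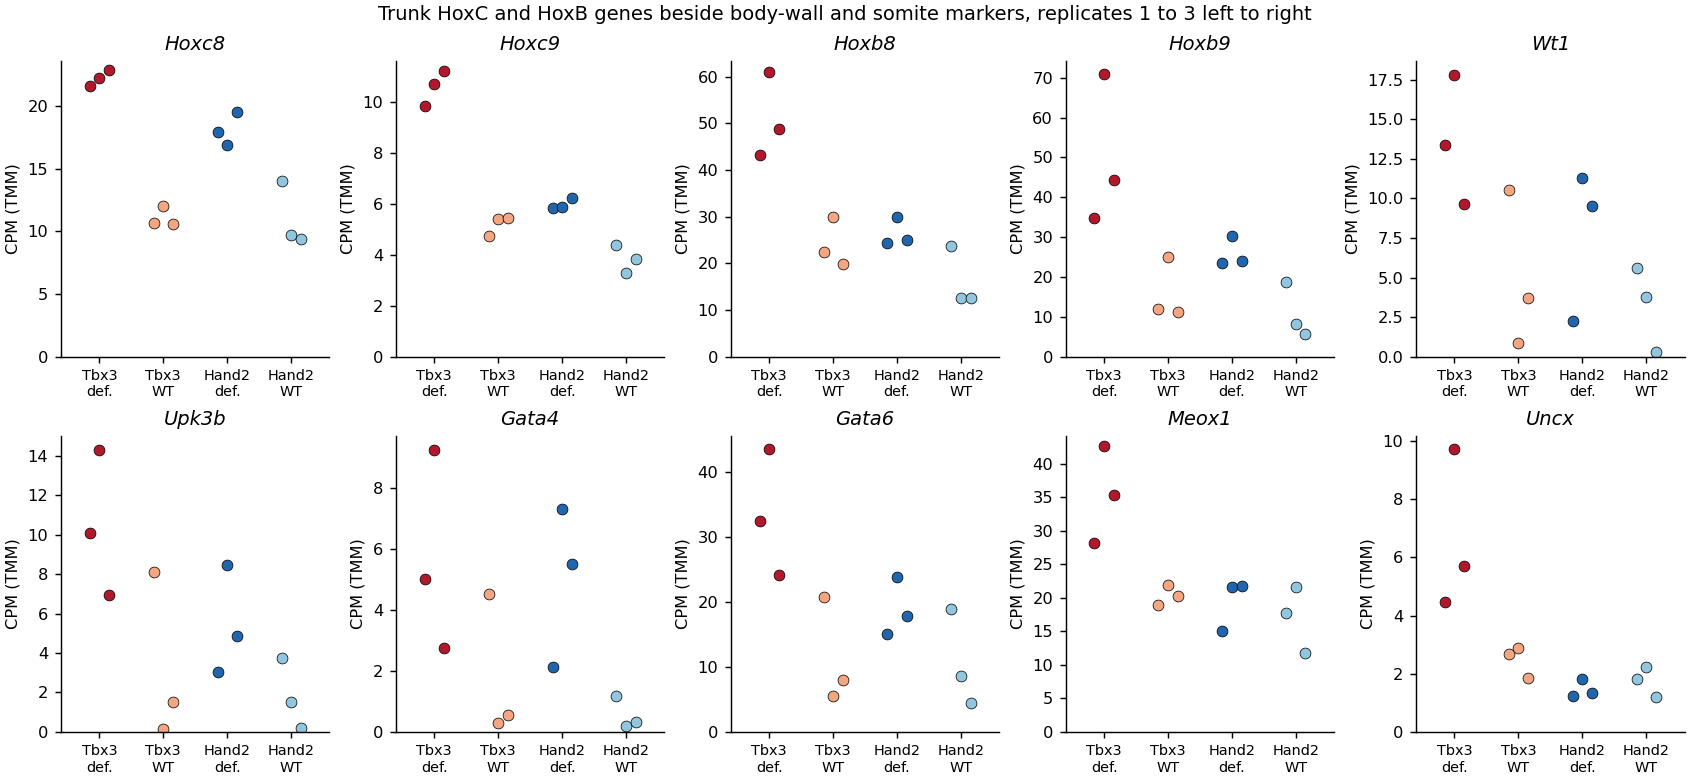
CPM of Hoxc8, Hoxc9 and their HoxB paralogues beside 4 markers of body wall (Wt1, Upk3b, Gata4, Gata6) and 2 of somite (Meox1, Uncx) in each library, points for replicates 1 to 3 left to right. Tbx18, Lhx9, Meox2 and Pax3 of these marker lists, with log2 fold changes below 0 under the Tbx3 label, are not drawn. Hoxc8, Hoxc9, Hoxb8 and Hoxb9 do not overlap between deficient and wild-type libraries in either series. Gata6, Meox1 and Uncx do not overlap in the Tbx3 series and do in the Hand2 series, Gata4 does the reverse, and Wt1 and Upk3b overlap in both.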

How the data were processed

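The deposited values are RSEM expected counts, 1 per Ensembl gene and library, without normalisation. Per the submitters' processing notes, the build was mm10 and the tools were STAR 2.5.2, RSEM 1.3.0 and FastQC 0.11.4. Per the labels' protocols, SMARTer libraries were read as single-end reads of 85 bases. Of 53465 genes, 53274 had a symbol in GENCODE M21 (GRCm38), matched by Ensembl identifier.

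Counts were rounded, scaled by TMM and tested with edgeR 4.0.16 under R 4.3.3, on genes kept by filterByExpr (at least 10 counts, 15 in total), by quasi-likelihood F tests. Genes were called at a p under 0.05 after Benjamini-Hochberg correction across the whole table. The scripts were tested on simulated data. Each mutant group was fitted with its own wild type, and the stage contrast and the difference of effects in a 4-group fit. Log2 fold changes use a prior count of 0.125, the SE is their size over the square root of F, and 95% intervals are 1.96 SE to each side. Limits from a count of 0 (3 counts) cover counting error only, since reads carry no molecular identifiers. Labels name 1 pair of buds per replicate and no litters or days.

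Alternatives were size factors (RLE), no low-count filter, DESeq2 1.42.0, limma-voom (limma 3.58.1), a replicate block, sex, the 4-group fit, thinning of the Hand2 series to 26 M counts per library, and each library left out. Named genes are the 7 members, Hoxc12 and Hoxc13, the non-coding genes of the cluster and 2 coding genes on each side, up to 6 called genes per list, and per member the 2 genes of most like pattern (mean of at least 5 CPM in a group, log2 CPM with prior count 2). A result that this rule names is not reported here. Genes set beside the members by library (Tbkbp1, Wt1, Meox1 and others) were chosen after their values were seen. The members and lists were chosen with earlier results of these data known.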

Additional observations from a re-analysis of the deposited data

How the results depend on the processing

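Of the 6 members tested, the number called was 3 in buds labelled Tbx3-deficient, where it was 4 without the low-count filter, also 4 by DESeq2, 1 with sex in the model and 1 to 3 with 1 library left out. It was 4 in Hand2-deficient buds, where it was 5 with DESeq2, 3 with the thinned series (Hoxc4 at an adjusted p of 0.0599) and with sex in the model, 1 with the replicate block and 0 to 3 with 1 library left out. Between the wild-type groups it was 0, and 1 with DESeq2, and for the difference of effects 0 under every alternative run. No member that was called reversed under any alternative run, and the log2 fold change of Hoxc8 stayed between 0.97 and 1.06 in buds labelled Tbx3-deficient and between 0.60 and 0.92 in Hand2-deficient buds. On coding transcript length, the levels per kilobase in buds labelled Tbx3-deficient, their wild type, Hand2-deficient buds and their wild type were 11.9, 5.96, 9.63 and 5.89 for Hoxc8, 24, 16.7, 21.9 and 15.9 for Hoxc6, and 20.8, 14.8, 16.2 and 11.7 for Hoxc4.

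Over all genes the calls under the Tbx3 label numbered 153, and 504 with no low-count filter, 551 with DESeq2, 99 with limma-voom, 87 with the replicate block, 22 with sex, 422 in the 4-group fit and 23 to 220 with 1 library left out. In Hand2-deficient buds they numbered 1836, and 3475 with DESeq2, 161 with the block, 526 with sex and 218 to 2223 with 1 library left out. Between the wild-type groups they numbered 360, and 1175 with DESeq2, 233 with limma-voom, 101 with the block, 77 with sex and 57 to 359 with 1 library left out. For the difference of effects they numbered 292, and 860 with DESeq2, 167 with the block and 123 to 336 with 1 library left out. The cause was not tested.

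Replicate numbers did not pair the samples: the correlation of same-numbered deviations ran from -0.00797 to 0.0741 in the Tbx3 series and from -0.128 to 0.0310 in the Hand2 series, and the block is therefore only an alternative. With it, 3 members were called under the Tbx3 label, 1 in Hand2-deficient buds, and 0 between the wild types and for the difference. In Hand2-deficient buds the block left log2 fold changes of 0.48 for Hoxc4, 0.73 for Hoxc8 and 0.65 for Hoxc9. Depth limits what can be said of Hoxc10, Hoxc11, Hoxc12 and Hoxc13.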
